A study of Homo sapiens with 12 samples.

Results

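ERVK elements are the copies of the HERV-K group of human endogenous retroviruses, remnants of ancient infections of the germ line. The members were all elements that SQuIRE listed under the family name ERVK and that carried reads on their own strand in at least 1 of 12 libraries. There were 5644 of them, among 1509971 elements of 6 transposable classes selected the same way. Of the 5644 elements, 1354 were internal parts, the former gag, pol and env regions, and 4290 were LTRs, the long terminal repeats that flanked them or now stand alone. They belonged to 42 subfamilies, 10 internal and 32 LTR. The reads came from PAR-CLIP, in which cells take up a photoreactive nucleoside and protein is crosslinked to RNA by light before it is pulled down, here by its V5 tag. The host cells were A375, an established human melanoma line, transfected transiently with 1 of 4 V5-tagged constructs and given the nucleoside 4sU 24 h later. The constructs were the fluorescent protein Clover as control, Z18fl, the full-length zinc finger protein ZC3H18, Z18trunc, a truncated ZC3H18, and Z18truncZnFmut, the truncated protein with the aromatic residues of its zinc finger mutated, with 3 libraries each. All tagged proteins were made from an introduced plasmid in cells that were otherwise treated alike, and the labels do not say whether the 3 libraries came from separate cultures, so p-values measure the spread between these libraries, which may be technical.

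Retroviral transcription starts in the 5′ LTR and ends in the 3′ LTR, where the polyadenylation signal lies. The internal part begins with the site at which a host tRNA primes reverse transcription, and the K of ERVK stands for the lysine tRNA that many of these elements used. The family is divided into groups called HML, of which HML-2 holds the youngest copies and HML-3, HML-5 and HML-6 are older. ZC3H18 is known as a link between the capped end of nuclear RNA and the nuclear exosome complexes that degrade unwanted transcripts. Most ERVK copies are defective, and many lie within host genes, where their RNA can be part of a longer transcript.

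The windows below come from elements described further on and show the retroviral signals and base composition these RNAs carry, in hg38 coordinates and read 5′ to 3′ along the element. Counts were taken over whole elements, not at these windows. The first 4 come from LTRs whose counts rose or fell and show the bases around the last AATAAA of the element, the polyadenylation signal, in capitals. LTR5A at chr12:8220943-8221068 (plus strand) belongs to a locus with 3 counts in all Clover libraries together, and LTR3 at chr19:58315045-58315170 (plus strand) to the provirus of ERVK3-1. MER9B at chr10:42494372-42494497 (plus strand) and LTR13 at chr9:133328964-133329089 (minus strand) belong to loci that fell. HERVK22-int at chr2:71388647-71388766 (plus strand) is the start of the internal part in ZNF638. The capitals are the letters searched for at the place of the primer binding site, and which tRNA they match was not tested. HERVK3-int at chr19:58312734-58312853 (plus strand) is the window of 120 bases richest in T in the internal element with the highest counts in ERVK3-1, with each T, the base at which 4sU can enter, in capitals.
LTR5A: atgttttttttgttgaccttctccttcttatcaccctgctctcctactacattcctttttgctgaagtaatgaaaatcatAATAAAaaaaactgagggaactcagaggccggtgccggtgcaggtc
LTR3: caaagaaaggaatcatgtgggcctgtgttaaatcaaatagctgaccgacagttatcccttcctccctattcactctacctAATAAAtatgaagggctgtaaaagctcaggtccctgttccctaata
MER9B: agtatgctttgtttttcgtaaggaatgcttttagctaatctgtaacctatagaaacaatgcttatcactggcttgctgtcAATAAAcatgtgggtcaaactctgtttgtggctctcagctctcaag
LTR13: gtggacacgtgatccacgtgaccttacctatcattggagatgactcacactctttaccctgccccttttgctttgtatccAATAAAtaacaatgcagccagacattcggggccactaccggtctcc
HERVK22-int: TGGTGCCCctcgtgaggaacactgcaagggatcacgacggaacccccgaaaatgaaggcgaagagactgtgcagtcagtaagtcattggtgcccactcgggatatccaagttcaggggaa
HERVK3-int: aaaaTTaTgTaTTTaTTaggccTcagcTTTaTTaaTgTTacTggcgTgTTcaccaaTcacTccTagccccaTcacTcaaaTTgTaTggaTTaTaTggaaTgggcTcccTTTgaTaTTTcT

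AATAAA was present on the RNA strand of 3789 of 4290 ERVK LTRs (88.3%) and on the opposite strand of 2221 (51.8%). In internal parts the same letters occurred in 717 of 1354 on the RNA strand (53.0%) and in 694 (51.3%) on the other. The letters TGGTGCCC stood in the first 60 bases of 101 of 1354 internal parts (7.46%) and in the last 60 bases of 1 (0.0739%), and on the opposite strand of the first 60 bases in 0. Among HERVK22-int copies the share was 27 of 195 (13.8%), and the copy in ZNF638 held the letters at positions 1 and 87 of the window. These are counts of elements that hold the letters and not of lysine tRNA sites.

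The Clover libraries held 16683132 to 17673644 aligned fragments and all others 21285347 to 25686948, and levels are given as CPM, counts scaled to 1000000 of these fragments. Counts were sparse, and 207 ERVK elements had reads in all 12 libraries while 2952 had them in 1. Z18truncZnFmut replicate 3 stood apart, with 3953 ERVK elements listed against 702 to 1586 elsewhere, and 1927 of the elements seen in a single library were seen in that one. Family values, shares and call counts for Z18truncZnFmut are therefore also given without it. No unselected RNA of the same cells was analysed here, so that more bound RNA and more of the RNA in the cell cannot be told apart, nor can RNA started in an element and RNA of a host gene on the same strand.

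ERVK RNA was higher with every ZC3H18 construct than with Clover relative to aligned fragments, and the increase was largest in the internal parts with Z18fl. ERVK elements reached 287, 264 and 278 CPM in the Clover libraries, 378, 381 and 386 CPM with Z18fl, 335, 348 and 352 CPM with Z18trunc, and 325, 318 and 556 CPM with Z18truncZnFmut. No library of a ZC3H18 construct overlapped with Clover, and all Z18trunc libraries lay below all Z18fl libraries. The difference from Clover was 0.47 on the log2 scale for Z18fl (SE 0.036), 0.32 for Z18trunc (SE 0.041) and 0.48 for Z18truncZnFmut (SE 0.27), the last falling to 0.22 without replicate 3. Z18trunc lay 0.15 below Z18fl, a log2 difference of -0.15 (SE 0.023). Each of these comparisons had p = 0.1 in a two-sided exact permutation test, the smallest p that 3 against 3 libraries allow, and 0.163 after adjustment over 65 such tests. Scaled by the counts of all elements instead, Z18fl differed from Clover by 0.071, and Z18trunc and Z18truncZnFmut lay below Clover, with log2 differences of -0.21 and -0.19. The comparisons with Clover share its 3 libraries.

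Internal parts and LTRs did not move alike. Internal parts had 107, 101 and 106 CPM in Clover and 172, 180 and 178 CPM with Z18fl, a 1.69-fold difference. LTRs had 180, 163 and 172 CPM in Clover and 206, 201 and 208 CPM with Z18fl, a 1.20-fold difference. With Z18trunc, internal parts reached 136, 149 and 149 CPM and LTRs 199, 198 and 203 CPM. Both parts were above Clover in all libraries of either construct, while internal parts with Z18trunc lay below all Z18fl libraries and LTR levels overlapped between the 2 constructs (log2 difference -0.037, exact permutation p = 0.2). The share of internal parts in ERVK counts was 37.9% ± 0.63 in Clover, 46.3% ± 0.84 with Z18fl, 42.0% ± 1.21 with Z18trunc and 39.6% ± 1.36 with Z18truncZnFmut (SD, n = 3 each). Without replicate 3 the Z18truncZnFmut share was 40.1%. The log2 ratio of internal to LTR counts, which tests the difference between the parts directly, rose from Clover by 0.50 with Z18fl and by 0.25 with Z18trunc and was 0.25 lower with Z18trunc than with Z18fl (log2 difference -0.25), without overlap and at the smallest exact p of 0.1. Z18truncZnFmut lay above Clover by 0.10 and differed from Z18trunc by -0.15 with overlapping libraries (exact permutation p = 0.2). No label pairs these libraries, but same-numbered ones deviated together, a pairing inferred from these same data. Taken as pairs, the ratio with Z18truncZnFmut was lower in 3 of 3, by -0.097, -0.11 and -0.23 (paired exact permutation p = 0.25, the smallest that 3 pairs allow). Per length, the 2 parts had like levels over all libraries, 0.0577 CPM per kb for internal parts and 0.0588 for LTRs.

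**Figure D1:**
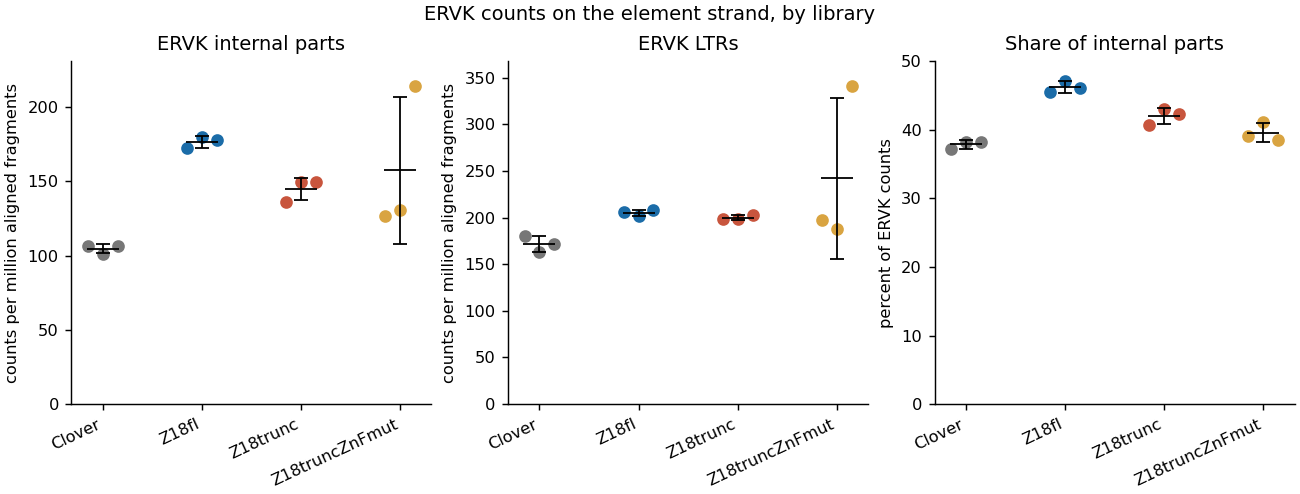
CPM of ERVK internal parts and of ERVK LTRs, and internal parts as a percent of ERVK counts, for each of the 12 libraries (points), with mean and SD (black). Internal parts with Z18fl lie at 172 to 180 CPM against 101 to 107 in Clover, and Z18truncZnFmut replicate 3 is the single high point in both level panels.

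The shift was compared with the other LTR families, each summed over its elements. ERVK counts rose relative to ERV1, the gammaretrovirus-like family, by 0.57 on the log2 scale with Z18fl (SE 0.032) and by 0.28 with Z18trunc (SE 0.033), without overlap with Clover (exact permutation p = 0.1, adjusted 0.163), and the ratio was 0.29 lower with Z18trunc than with Z18fl (log2 difference -0.29). With Z18truncZnFmut the ratio to ERV1 differed from Clover by 0.090 with overlapping libraries (exact permutation p = 0.2), or 0.045 without replicate 3, and it lay below all Z18trunc libraries at -0.19 (exact permutation p = 0.1), or -0.23 without replicate 3. Relative to ERVL, ERVK was 0.13 higher with Z18fl (exact permutation p = 0.1), and with Z18trunc the ratio overlapped with Clover at a log2 difference of -0.026. Relative to ERVL-MaLR the Z18fl and Clover libraries overlapped at -0.042 (exact permutation p = 0.7), and Z18trunc lay below Clover at -0.14. ERVK made up 4.16% of LTR-class counts in Clover, 5.11% with Z18fl, 4.45% with Z18trunc and 3.93% with Z18truncZnFmut (4.11% without replicate 3). The last share overlapped with Clover (exact permutation p = 0.4) and lay below all Z18trunc libraries, with a difference of -0.53 percentage points (exact permutation p = 0.1), or -0.34 without replicate 3.

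Uniquely mapping reads made up a mean of 63.1% of ERVK counts in Clover, 69.9% with Z18fl, 66.6% with Z18trunc and 65.7% with Z18truncZnFmut (64.1% without replicate 3), so part of each value depends on how reads shared by copies were divided. With unique reads alone the family difference from Clover was 0.62 for Z18fl and 0.40 for Z18trunc. The host context moved too. Elements in introns on the strand of the gene held 31.5% of ERVK counts in Clover and 38.8%, 37.4% and 34.8% with Z18fl, Z18trunc and Z18truncZnFmut, and elements opposite to a gene held 14.8% in Clover and 8.05%, 10.6% and 14%. Without Z18truncZnFmut replicate 3 its 2 shares were 37.0% and 12.3%. Exonic elements held 34.2%, 33.3%, 31.4% and 25.5% in the same order, where the Z18truncZnFmut libraries had 30.6%, 28.6% and 17.4% and their difference from Clover was -8.74 percentage points, or -4.68 without replicate 3. The share of T in ERVK elements weighted by counts, which bears on how much 4sU they can carry, was 27.2% in Clover, 26.9% with Z18fl, 27.1% with Z18trunc and 27.2% with Z18truncZnFmut. It was lower than in Clover without overlap with Z18fl (-0.26 percentage points, SE 0.015) and Z18trunc (-0.13, SE 0.015; exact permutation p = 0.1 each), and with Z18truncZnFmut it overlapped. That overlap came from replicate 3, since the Z18truncZnFmut libraries had 27.00%, 27.08% and 27.56%. Without replicate 3 the mean was 27.04% and the difference from Clover -0.15 percentage points.

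Among the 10 HML groups, HML-6 had the largest relative rise with Z18fl, from 32.7 ± 2.2 CPM in Clover to 65.6 ± 2.0 CPM, with 52.3 ± 3.6 CPM with Z18trunc and 45.7 ± 5.5 CPM with Z18truncZnFmut (SD, n = 3 each), the last being 42.5 CPM without replicate 3. Much of the HML-6 rise with Z18fl lay in the single ERVK3-1 provirus described below. There an internal HERVK3-int went from 7.19 to 19.8 CPM and the 3′ LTR3 from 4.57 to 9.17 CPM. HML-2, the group of the youngest copies, held 22.5% of ERVK counts and went from 65.9 CPM in Clover to 84.2 CPM with Z18fl. HML-3 held 18.7% and went from 52.9 to 73.8 CPM, and HML-5 held 16.9% and went from 52.9 to 66.7 CPM. HML-4 and HML-1 changed from 38.7 to 46.3 CPM and from 9.92 to 16.4 CPM. These levels are per aligned fragment. As a share of all element counts, the whole ERVK family had 0.699% in Clover and 0.735% with Z18fl. Per length, HML-6 had the highest level over all libraries, 0.154 CPM per kb, followed by HML-5 at 0.117 and HML-4 at 0.0901, and HML-7 had the lowest at 0.00896. HML-8, HML-10, HML-9 and HML-7 held 8.57%, 0.697%, 0.581% and 0.402% of ERVK counts.

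Counts summed over all copies of a subfamily do not depend on which of its own copies a shared read was given to. Reads shared with copies of another subfamily still depend on how they were divided. In the subfamily tests, edgeR compared each subfamily relative to all others, with TMM scaling and Benjamini-Hochberg adjustment over all subfamilies. With Z18fl against Clover, 5 of 35 tested ERVK subfamilies rose and 6 fell, against 20.1% of all tested subfamilies called higher and 20.1% called lower. The 5 that rose were the internal HERVK-int, HERVK3-int and HERVK9-int and the LTRs LTR3 and LTR13_, and the 6 that fell were all LTRs. When libraries were scaled by aligned fragments, under which the median of all subfamilies lay 0.45 higher for Z18fl, the split was 19 higher and 2 lower of 35. Among all 919 subfamilies tested that way, 497 were higher and 39 lower, so the ERVK split was near that of all subfamilies.

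HERVK3-int, the internal part of HML-6, was the internal subfamily with the smallest adjusted p. Its summed counts were 333, 326 and 383 in Clover, 1022, 997 and 1099 with Z18fl, 776, 832 and 861 with Z18trunc, and 637, 576 and 777 with Z18truncZnFmut. Every Z18fl library lay above every other library. In edgeR it rose by 0.63 with Z18fl (SE 0.09, adjusted p = 2e-05), differed by 0.27 with Z18trunc (adjusted p = 0.065) and fell by 0.39 from Z18fl to Z18trunc (SE 0.07, adjusted p = 0.013). LTR3, the LTR of the same group, rose by 0.68 with Z18fl (SE 0.12, adjusted p = 0.0003) and fell by 0.52 from Z18fl to Z18trunc (adjusted p = 0.024). A single element held 41.5% of HERVK3-int counts and another 63.4% of LTR3 counts, both in the ERVK3-1 provirus described below, so the 2 subfamily results are not independent of each other or of that locus.

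HERVK-int, the internal part of HML-2, had 81, 73 and 118 counts in Clover, 255, 249 and 311 with Z18fl, 157, 191 and 220 with Z18trunc and 198, 183 and 480 with Z18truncZnFmut. The Z18fl libraries lay above all Clover and Z18trunc libraries, and Z18truncZnFmut replicate 3 lay above all others. The subfamily rose by 0.63 with Z18fl (SE 0.15, adjusted p = 0.0029) and fell by 0.57 from Z18fl to Z18trunc (SE 0.10, adjusted p = 0.0067). HERVK9-int of HML-3 had a mean of 30.6 CPM in Clover, 53.2 with Z18fl, 43.2 with Z18trunc and 45.7 with Z18truncZnFmut. The last mean was raised by replicate 3, as the Z18truncZnFmut libraries had 35.8, 36.1 and 65.1 CPM against 41.5 to 45.7 CPM with Z18trunc. It rose by 0.33 with Z18fl (SE 0.08, adjusted p = 0.0034) and fell by 0.35 from Z18fl to Z18trunc (adjusted p = 0.049). HERVK22-int of HML-5 did not pass with Z18fl (-0.0061) and fell with Z18trunc against Clover by 0.38 (SE 0.12, adjusted p = 0.026), although scaled by aligned fragments the sign turned to 0.10. It also fell by 0.41 from Z18fl to Z18trunc (adjusted p = 0.049).

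The other internal subfamilies did not pass the test in any comparison. HERVK14-int of HML-1 had means of 5.62, 9.53, 9.62 and 9.96 CPM in Clover, Z18fl, Z18trunc and Z18truncZnFmut (Z18fl against Clover 0.30, edgeR adjusted p = 0.074). HERVK13-int of HML-4 had 9.35, 12.7, 12.7 and 13.3 CPM, HERVK11-int of HML-8 had 1.12, 1.40, 1.56 and 4.78 CPM, and HERVK14C-int of HML-9 had 0.724, 1.13, 1.08 and 1.60 CPM. HERVKC4-int of HML-10, at 0.197 to 0.670 CPM, and HERVK11D-int of HML-7, at 0.0144 to 0.700 CPM, mostly or wholly failed the filter on low counts. In all these subfamilies Z18truncZnFmut replicate 3 was the highest of its construct and raised the mean. The Z18truncZnFmut libraries had 7.74, 6.53 and 15.6 CPM for HERVK14-int and 9.39, 13.2 and 17.3 CPM for HERVK13-int. They had 1.20, 1.83 and 11.3 CPM for HERVK11-int and 0.827, 0.752 and 3.22 CPM for HERVK14C-int.

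The LTR subfamilies that fell with Z18fl were MER9a1 (-1.36, SE 0.13, edgeR adjusted p = 6.3e-07), LTR22B1 (-1.22, SE 0.12, adjusted p = 9.9e-07), LTR14C (-1.04, adjusted p = 0.027), MER9B (-0.76, adjusted p = 0.00023), LTR5_Hs (-0.45, adjusted p = 0.00036) and LTR13 (-0.36, adjusted p = 0.001). Several of these were carried by a single copy, which held 89.4% of MER9B counts, 82.7% of LTR22B1 counts and 60.8% of MER9a1 counts. Scaled by aligned fragments LTR5_Hs and LTR13 were instead at 0.019 and 0.11. LTR13_ rose by 0.76 with Z18fl (SE 0.28, adjusted p = 0.04) and by 1.09 with Z18trunc (SE 0.36, adjusted p = 0.033). The Z18fl call of LTR13_ was lost without Clover replicate 2 or 3 or without any single Z18fl library (adjusted p = 0.052 to 0.119), and its Z18trunc call without any single Clover library or Z18trunc replicate 1 (adjusted p = 0.07 to 0.258). The call of LTR14C was lost without Clover replicate 1 or any single Z18fl library (adjusted p = 0.054 to 0.136).

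With Z18trunc against Clover, 1 of 36 tested ERVK subfamilies rose (background 14.5%) and 6 fell (background 11.9%). With aligned-fragment scaling, under which the median of all subfamilies lay 0.48 higher, 10 of 37 were higher and 1 lower. Among all 924 subfamilies tested that way, 417 were higher and 9 lower. Besides HERVK22-int the subfamilies that fell were LTR22B1 (-0.93), MER9B (-0.84), MER9a1 (-0.71), LTR5_Hs (-0.42) and LTR13 (-0.39), the last pair again turning to 0.063 and 0.091 when scaled by aligned fragments. HERVK22-int lost its call without Clover replicate 2 (adjusted p = 0.073) or 3 (0.215), and LTR5_Hs and LTR13 without Clover replicate 3 (adjusted p = 0.094 and 0.079). From Z18fl to Z18trunc, 5 of 37 tested subfamilies fell (background 2.43%) and MER9a1 rose by 0.62 (adjusted p = 0.042, background 1.48%). The 5 that fell were LTR3 and 4 of the 8 tested internal subfamilies. With aligned-fragment scaling 1 was called higher and 0 lower, beside 15 and 12 of all 945 subfamilies. With all 12 libraries in a single fit 0 were called in either direction. Each of these 6 calls was lost without at least 1 library, HERVK-int without Z18fl replicate 1 (adjusted p = 0.056), HERVK3-int without Z18fl replicate 1 or 2 or Z18trunc replicate 1 (0.056 to 0.131), LTR3 without replicate 1 or 2 of either construct (0.069 to 0.19), HERVK22-int without any single Z18fl library or Z18trunc replicate 1 (0.127 to 0.19), and HERVK9-int (0.063 to 0.216) and MER9a1 (0.139 to 0.182) without any single Z18fl library or Z18trunc replicate 1 or 2.

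Z18truncZnFmut against Clover gave 0 of 36 ERVK subfamilies in either direction by edgeR (background 1.3% higher and 0% lower), 0 higher and 2 lower at an unadjusted p under 0.05, and 1 lower by DESeq2. Without Z18truncZnFmut replicate 3, 2 of 36 were lower. Against Z18trunc it gave 0 of 39 (background 0% in both directions), with 0 at an unadjusted p under 0.05 and 0 by DESeq2.

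**Figure D2:**
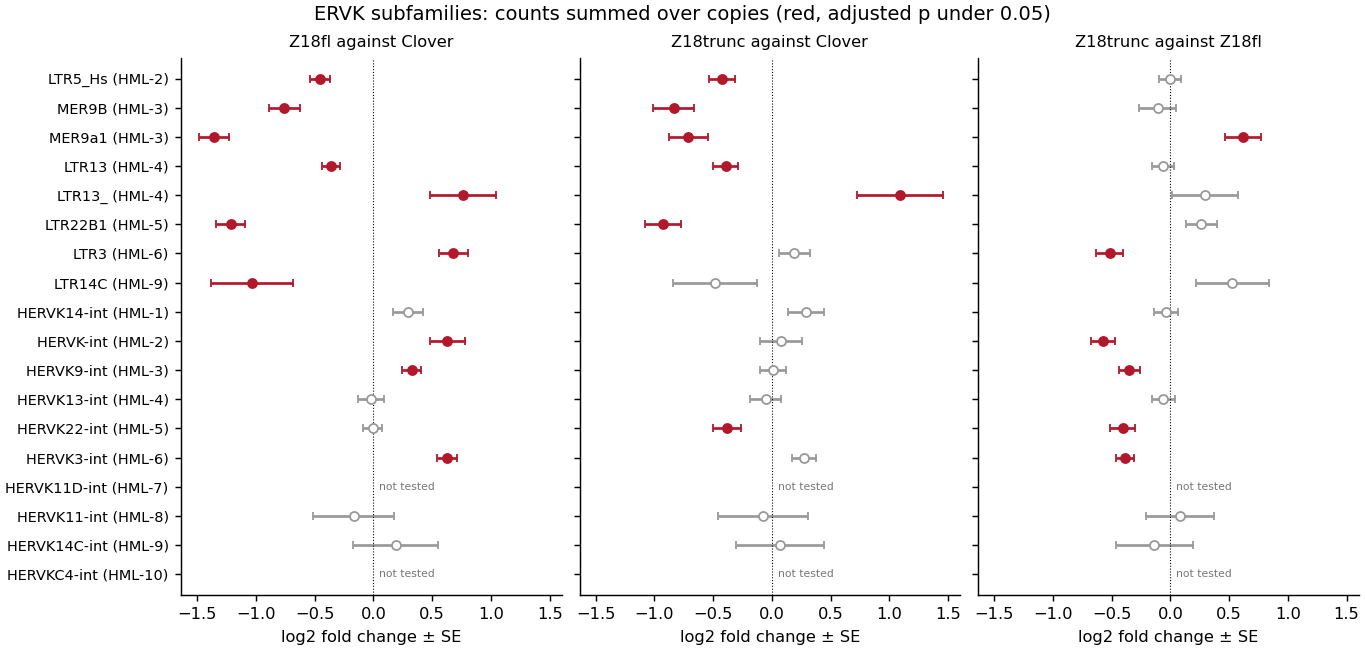
edgeR log2 fold changes with SE for ERVK internal subfamilies and the 8 LTR subfamilies called in any comparison, in 3 comparisons. Of the 10 internal subfamilies 8 have points, and HERVK11D-int and HERVKC4-int were not tested in these comparisons. Red points have an adjusted p under 0.05. Internal subfamilies lie at or above 0 with Z18fl except HERVK11-int, HERVK13-int and HERVK22-int, and 4 of them fell from Z18fl to Z18trunc.

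At single loci, 107 ERVK elements passed the filter on low counts for Z18fl against Clover and held 60.1% of ERVK counts. Of these, 30 rose and 25 fell, against 28.3% higher and 24.6% lower among all 12098 tested loci, so ERVK elements as a whole were called about as often as other elements. The number that fell was 15 without Z18fl replicate 1, 14 without Z18fl replicate 3, 14 with unique reads and 5 without the filter. The parts differed, and relative to other elements they split in opposite ways. Of 45 tested internal elements 17 rose and 4 fell (median log2 fold change 0.52), and of 62 tested LTRs 13 rose and 21 fell (median -0.23), beside a median of 0.0084 over all loci. The 30 elements that rose lay in 20 proviruses and the 25 that fell in 22, where elements of the family on 1 strand within 2000 bases were counted as a provirus, and 0 proviruses held both. With aligned-fragment scaling, under which the median of all loci lay 0.48 higher, 44 of 114 rose and 16 fell. Among all 12886 loci tested that way, 4934 rose and 1699 fell, so the ERVK split was near that of all loci. Of these ERVK calls, 24 and 3 of 48 were among internal parts (median 0.93) and 20 and 13 of 66 among LTRs (median 0.21, now above 0).

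The calls were also counted by context and by HML group. Among all 12098 tested loci, whatever their context, 28.3% rose and 24.6% fell. No share over all loci was computed for each context, so the counts by context are not shown to be particular to ERVK. Of 40 tested elements in introns 16 rose and 4 fell, of 37 in exons 7 rose and 12 fell, of 19 outside genes 6 rose and 2 fell, and of 11 opposite to a gene 1 rose and 7 fell (median -1.20). The 16 in introns that rose lay in 11 proviruses, and the 7 opposite to a gene that fell lay in 4, with 4 of the 7 in the provirus opposite to ZNF675. Part and context overlap in these counts and were not separated. By group, 8 of 14 HML-6 elements rose and 2 fell (median 0.76), the 8 lying in 4 proviruses with 5 of them in that of ERVK3-1. Likewise 9 of 33 HML-2 elements rose and 8 fell, 7 of 20 HML-3 elements rose and 5 fell, 4 of 17 HML-5 elements rose and 5 fell, and 0 of 11 HML-4 elements rose and 3 fell. Within HML-2, 2 of 15 tested LTR5_Hs elements rose and 6 fell, while 4 of 9 LTR5B elements rose and 1 fell. AATAAA was present in 9 of 13 LTRs that rose, 20 of 21 that fell and 25 of 28 that were not called. Median divergence from the consensus was 12.1% in LTRs that rose and 6.7% in those that fell, beside 8.7% in the rest.

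**Figure D3:**
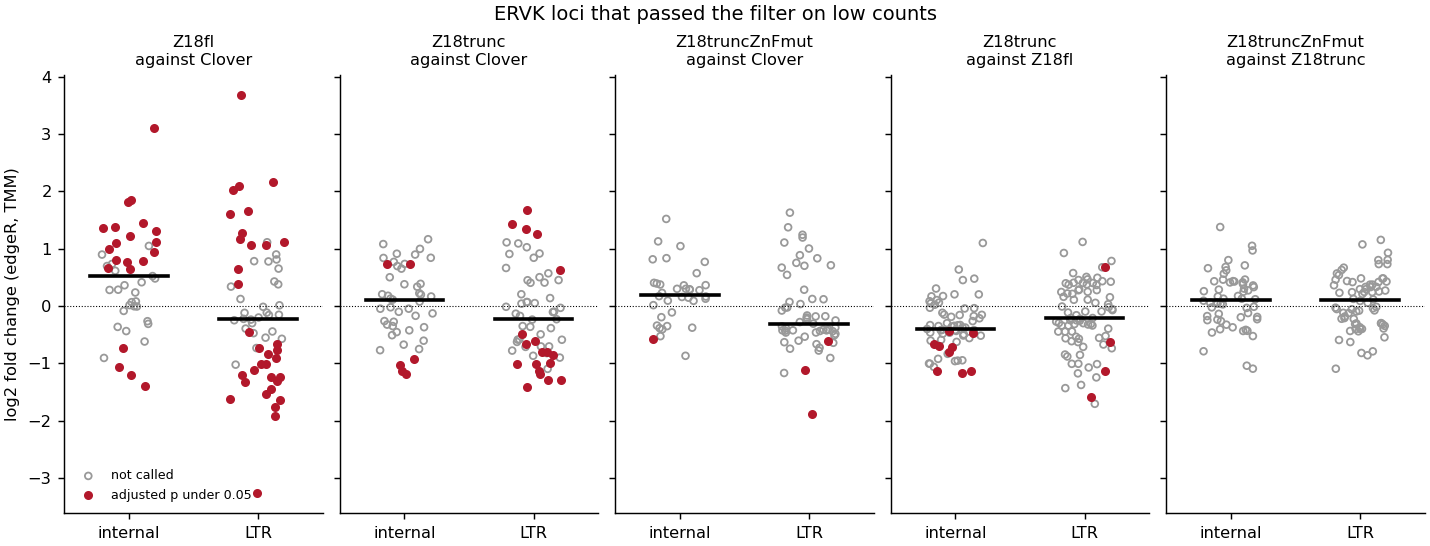
edgeR log2 fold change of each ERVK locus that passed the filter on low counts, internal parts and LTRs apart, in the 5 comparisons, with medians as black bars. Filled points have an adjusted p under 0.05. With Z18fl against Clover the internal median is 0.52 and the LTR median -0.23, which becomes 0.21 with aligned-fragment scaling.

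The provirus of ERVK3-1, an HML-6 locus annotated as a gene of its own on chromosome 19, held the internal element with the smallest adjusted p for Z18fl against Clover. Its element HERVK3-int at chr19:58311249-58313278, an exon of ERVK3-1 and the source of the T-rich window above, had 114, 121 and 135 counts in Clover, 465, 455 and 504 with Z18fl, 329, 357 and 397 with Z18trunc, and 238, 240 and 226 with Z18truncZnFmut. In CPM these were 7.19 ± 0.41, 19.8 ± 0.24, 15.1 ± 1.5 and 10.2 ± 1.0, and none of the 4 constructs overlapped. It rose by 1.10 with Z18fl (SE 0.13, edgeR adjusted p = 3.2e-06) and by 0.73 with Z18trunc (SE 0.15, adjusted p = 0.00063), and it differed by 0.30 with Z18truncZnFmut (adjusted p = 0.26). It fell by 0.47 from Z18fl to Z18trunc (adjusted p = 0.042), a call lost without replicate 1 or 2 of either construct (0.128 to 0.209). Upstream in the same provirus, the 5′ LTR3 at chr19:58305671-58306101 rose by 1.11 with Z18fl (adjusted p = 0.00037) and 0.64 with Z18trunc (adjusted p = 0.034). Only 40.5% of the counts of this 5′ LTR3 were unique with Z18fl and 33.5% with Z18trunc. Its rise therefore depends on how reads shared with other copies were divided. The upstream HERVK3-int elements starting at 58306515 and 58307323 rose by 1.38 and 0.78 with Z18fl. The 3′ LTR3 at chr19:58314840-58315267, whose signal window is printed above, rose by 0.65 with Z18fl (SE 0.19, adjusted p = 0.0076), a call lost without Clover replicate 2 (0.44, adjusted p = 0.072). These elements lie in 1 provirus and are not independent.

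The HML-5 provirus in an intron of ZNF638, which encodes a zinc finger protein, differed along its length. The 5′ LTR22E at chr2:71388099-71388644 had 7, 12 and 10 counts in Clover, 55, 44 and 68 with Z18fl, 65, 37 and 38 with Z18trunc, and 31, 36 and 30 with Z18truncZnFmut. It rose by 1.66 with Z18fl (edgeR adjusted p = 0.00028) and by 1.43 with Z18trunc (SE 0.36, adjusted p = 0.0038), and its difference with Z18truncZnFmut was 1.11 (adjusted p = 0.058). With at most 12 counts in any Clover library, this LTR22E passed the filter on low counts through the libraries of the ZC3H18 construct compared. Its calls against Clover are therefore no separate evidence. HERVK22-int at chr2:71388647-71395356, which starts with the window shown above, had 129, 130 and 148 counts in Clover, 402, 402 and 471 with Z18fl, 256, 313 and 260 with Z18trunc, and 255, 245 and 272 with Z18truncZnFmut. The Z18fl libraries lay above all others. This internal part rose by 0.80 with Z18fl (SE 0.13, adjusted p = 7.1e-05), differed by 0.20 with Z18trunc (adjusted p = 0.29) and fell by 0.70 from Z18fl to Z18trunc (SE 0.13, adjusted p = 0.0028). The 3′ LTR22E at chr2:71395357-71395817, annotated as exonic, differed by -0.16 with Z18fl (adjusted p = 0.59).

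Other internal parts rose within host genes. In PPHLN1, the gene of periphilin, HERVK22-int at chr12:42442666-42443554 had 16, 13 and 10 counts in Clover, 39, 42 and 55 with Z18fl, 18, 18 and 27 with Z18trunc, and 28, 18 and 26 with Z18truncZnFmut. It rose by 0.94 with Z18fl (edgeR adjusted p = 0.014, lost without Clover replicate 3 at 0.72 and 0.095) and fell by 1.17 from Z18fl to Z18trunc (SE 0.27, adjusted p = 0.013, lost without Z18fl replicate 2 or Z18trunc replicate 1 or 2 at 0.059 to 0.075). The adjoining HERVK22-int at chr12:42443566-42446699 rose by 0.99 with Z18fl (adjusted p = 0.00049). An HML-3 provirus on chromosome 5 that reaches into SDHA, the gene of a succinate dehydrogenase subunit, had HERVK9-int elements starting at 242653 and 246675 that rose by 1.36 (adjusted p = 0.00034) and 0.65 (adjusted p = 0.014) with Z18fl, and a 3′ MER9a3 at 249326 that rose by 1.61 (adjusted p = 0.014). This MER9a3, with a mean of 25.6 counts with Z18fl, passed the filter on low counts through the Z18fl libraries. Its call is therefore no separate evidence.

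**Figure D4:**
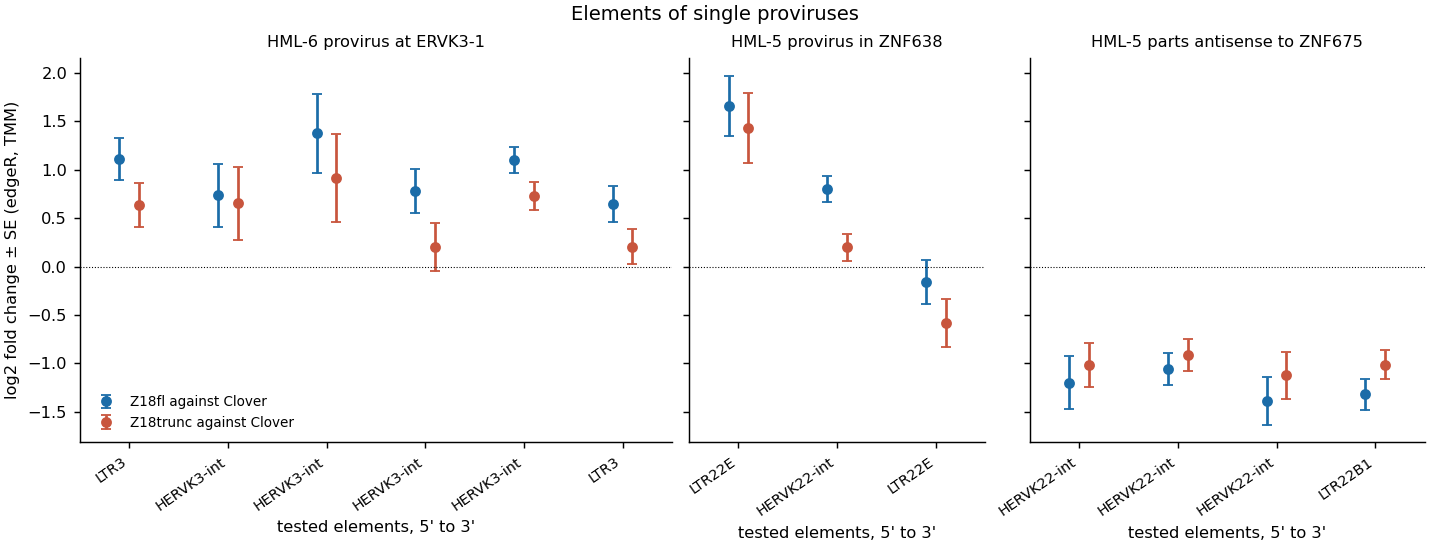
edgeR log2 fold changes with SE for the tested elements of 3 proviruses, in 5′ to 3′ order, with Z18fl and with Z18trunc against Clover. All 6 elements of the ERVK3-1 provirus lie above 0, the ZNF638 provirus goes from 1.66 at its 5′ LTR22E to -0.16 at its 3′ LTR22E with Z18fl, and the 4 elements opposite to ZNF675 lie below -0.90. The 5′ LTR22E passed the filter on low counts through the ZC3H18 libraries, so its calls are no separate evidence. Of the counts of the 5′ LTR3 of the ERVK3-1 provirus, 40.5% were unique with Z18fl and 33.5% with Z18trunc.

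Among loci with few reads in Clover, LTR5A at chr12:8220179-8221207, in an exon of a long noncoding RNA gene without a symbol, had 2, 0 and 1 counts in Clover, 28, 25 and 21 with Z18fl, 9, 12 and 5 with Z18trunc, and 12, 4 and 8 with Z18truncZnFmut. Every library of a ZC3H18 construct was above every Clover library. Over summed counts of 3 in Clover and 74 with Z18fl the ratio per aligned fragment was 17.7 (exact 95% interval 5.82 to 87.7, counting error only). HERVK3-int at chr14:28417869-28419776, outside genes, had 0, 3 and 1 counts in Clover and 22, 23 and 20 with Z18fl, a ratio of 11.6 (exact 95% interval 4.34 to 44). Both loci passed the filter on low counts only through the Z18fl libraries, so their calls against Clover are no separate evidence, and neither was tested for Z18trunc or Z18truncZnFmut against Clover. LTR5A fell by 1.59 from Z18fl to Z18trunc (edgeR adjusted p = 0.015, lost without Z18fl replicate 1 or 2 or Z18trunc replicate 1 at 0.059 to 0.074). In that comparison too it passed the filter only through the Z18fl libraries, so this call is likewise no separate evidence.

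LTR5_Hs at chr2:186521529-186522372, an HML-2 LTR outside genes, had 5, 2 and 8 counts in Clover, 38, 37 and 42 with Z18fl, 22, 21 and 25 with Z18trunc, and 12, 18 and 15 with Z18truncZnFmut. The 4 constructs did not overlap in counts. It rose by 2.10 with Z18fl (SE 0.41, edgeR adjusted p = 0.00038) and by 1.35 with Z18trunc (adjusted p = 0.036), the second call being lost without Clover replicate 1 or 2 or any single Z18trunc library (0.058 to 0.157). The neighbouring HERVK-int that starts at 186521159 rose by 1.85 with Z18fl (adjusted p = 0.00086). LTR5B at chr20:34424999-34425992, in an intron, had 3, 5 and 0 counts in Clover and 22, 14 and 31 with Z18fl, and it rose by 2.16 (SE 0.60, adjusted p = 0.0053). This LTR5B, the LTR5_Hs above and its neighbouring HERVK-int passed the filter on low counts only through the libraries of the ZC3H18 construct compared. Their calls against Clover are therefore no separate evidence. LTR5B was not tested for Z18trunc or Z18truncZnFmut against Clover, nor LTR5_Hs for Z18truncZnFmut against Clover.

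LTR5B at chr11:65522789-65523765, outside genes, was among the 6 loci with the highest mean level. It had 96, 88 and 90 counts in Clover, 200, 204 and 242 with Z18fl, 154, 161 and 129 with Z18trunc and 137, 139 and 170 with Z18truncZnFmut. It rose by 0.39 with Z18fl (SE 0.15, edgeR adjusted p = 0.033), a call lost without any single Clover library (0.068 to 0.171), and fell by 0.62 from Z18fl to Z18trunc (adjusted p = 0.016), a call lost without replicate 1 or 2 of either construct (0.053 to 0.071). HERVK9-int at chr10:42487021-42494108, an exon of the long noncoding RNA LINC00839, had the highest mean level of all ERVK loci, 15 CPM over the 12 libraries, and 43.2% of its counts were unique. It had 231, 260 and 263 counts in Clover and 435, 463 and 467 with Z18fl, which in edgeR was a log2 fold change of 0.018 (adjusted p = 0.92). With Z18truncZnFmut it had 289, 230 and 269 counts and fell by 0.58 (SE 0.15, adjusted p = 0.0098), a call lost without Z18truncZnFmut replicate 1 (-0.46, adjusted p = 0.076). Its 3′ LTR, MER9B at chr10:42494109-42494602, fell with all ZC3H18 constructs, by 0.73 with Z18fl (adjusted p = 0.0013), 0.79 with Z18trunc (adjusted p = 0.00062) and 1.12 with Z18truncZnFmut (SE 0.19, adjusted p = 0.00012).

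**Figure D5:**
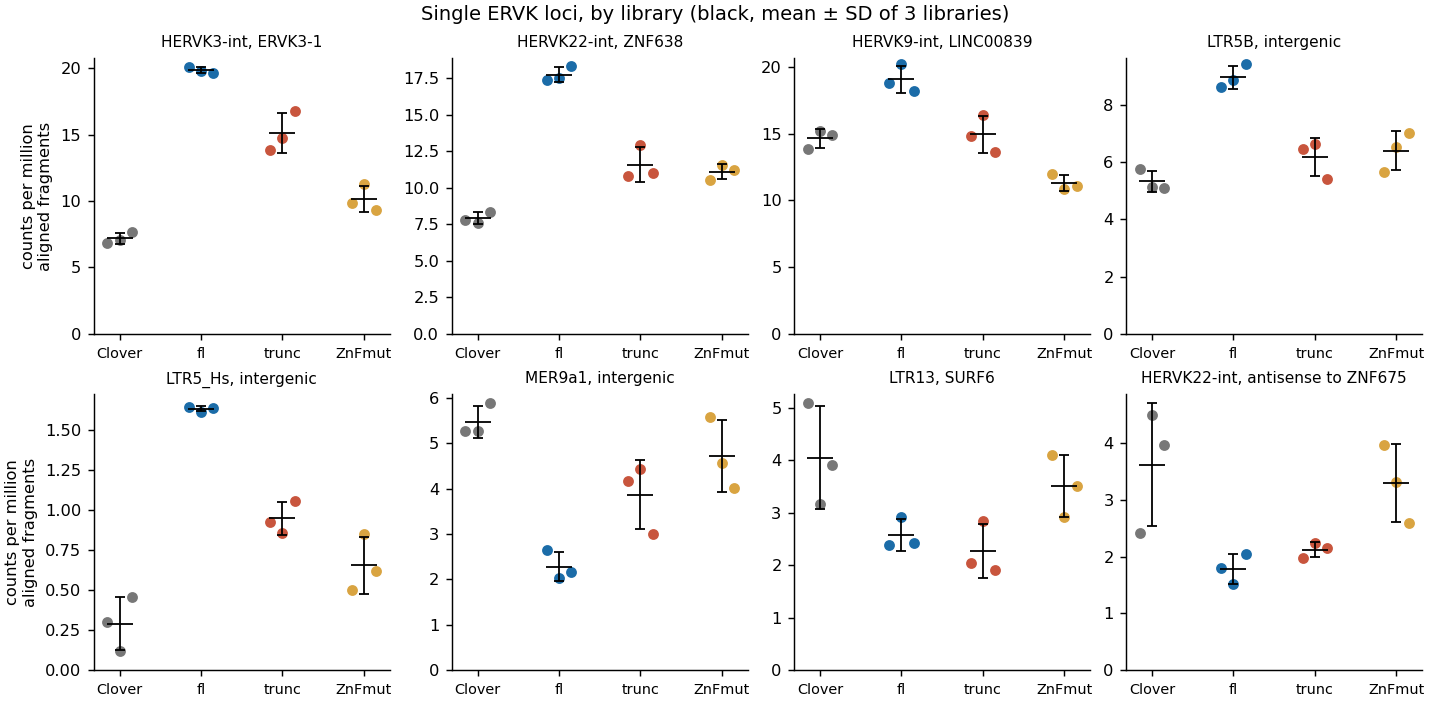
CPM of 8 single ERVK loci in each of the 12 libraries (points), with mean and SD of 3 libraries (black). HERVK3-int in ERVK3-1, HERVK22-int in ZNF638, LTR5B and LTR5_Hs are highest with Z18fl, while MER9a1 and the HERVK22-int opposite to ZNF675 are lowest with Z18fl.

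Loci that fell were mostly LTRs. MER9a1 at chr1:154679406-154679909, outside genes, had 88, 90 and 104 counts in Clover, 61, 46 and 56 with Z18fl, 99, 107 and 71 with Z18trunc and 135, 97 and 97 with Z18truncZnFmut. Despite their greater depth, all Z18fl libraries were below all others. It fell by 1.63 with Z18fl (SE 0.19, edgeR adjusted p = 2.1e-06) and by 0.85 with Z18trunc (adjusted p = 0.00084), and it rose by 0.68 from Z18fl to Z18trunc (SE 0.20, adjusted p = 0.044), a call lost without any single Z18fl library or Z18trunc replicate 1 or 2 (0.077 to 0.156). The 4 tested elements of an HML-5 provirus opposite to ZNF675, a KRAB zinc finger gene, fell together, by 1.06 to 1.39 with Z18fl and by 0.91 to 1.12 with Z18trunc. Of these, HERVK22-int at chr19:23558156-23558433 had 40, 77 and 70 counts in Clover, 42, 35 and 52 with Z18fl, 47, 54 and 51 with Z18trunc and 96, 71 and 63 with Z18truncZnFmut. The count ranges of Clover overlap with those of Z18fl and Z18trunc, but its CPM did not overlap with either, and it fell by 1.39 with Z18fl (SE 0.25, adjusted p = 0.00017). LTR13 at chr9:133328826-133329832, in an exon of SURF6, which encodes a nucleolar protein, had 85, 54 and 69 counts in Clover, 55, 67 and 62 with Z18fl and 48, 69 and 45 with Z18trunc, and it fell by 1.01 with Z18fl (adjusted p = 0.00072) and 1.19 with Z18trunc (SE 0.22, adjusted p = 0.00035). LTR13 at chr8:145055126-145056118, in an exon of C8orf33, fell by 0.46 with Z18fl (adjusted p = 0.014) and 0.61 with Z18trunc (adjusted p = 0.0034), and its Z18fl call was lost without any single Z18fl library (0.086 to 0.203). Its CPM overlapped between Z18fl and Clover, at means of 7.43 and 7.92, and was lower without overlap with Z18trunc, at 6.61.

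With Z18trunc against Clover, 7 of 109 tested ERVK elements rose (background 22.5%) and 18 fell (background 13.4%). The counts were 11 higher without Clover replicate 1, 4 higher and 10 lower without Z18trunc replicate 1, 10 lower without Z18trunc replicate 2, 11 lower without Z18trunc replicate 3, 3 and 10 by DESeq2, and 11 and 1 without the filter. Internal parts contributed 2 that rose and 4 that fell of 47 (median 0.11), and LTRs 5 and 14 of 62 (median -0.23), beside a median of -0.033 over all loci. With aligned-fragment scaling, under which the median of all loci lay 0.39 higher, 27 of 109 rose and 6 fell, with 12 and 3 of 62 among LTRs. Among all 13373 loci tested that way, 4280 rose and 494 fell. MER11C at chr12:10945286-10946368 (minus strand), an HML-8 LTR in an intron, had 4, 6 and 10 counts in Clover, 17, 21 and 30 with Z18fl, 33, 43 and 38 with Z18trunc, and 33, 21 and 21 with Z18truncZnFmut. All Z18trunc libraries lay at or above every other library, and it rose by 1.67 with Z18trunc (SE 0.39, edgeR adjusted p = 0.0022) and differed by 0.90 with Z18fl (adjusted p = 0.092). With at most 10 counts in any Clover library, it passed the filter on low counts through the Z18trunc libraries. Its call against Clover is therefore no separate evidence. LTR14B at chr3:128920573-128921195, in an intron of ACAD9, a mitochondrial acyl-CoA dehydrogenase gene, had 11, 6 and 7 counts in Clover, 29, 31 and 38 with Z18fl and 44, 20 and 38 with Z18trunc. It rose by 1.17 with Z18fl (adjusted p = 0.012) and 1.26 with Z18trunc (SE 0.42, adjusted p = 0.023), the calls being lost without Clover replicate 2 or 3 (0.053 to 0.087) and, for Z18trunc, also without Z18trunc replicate 1 or 3 (0.065 to 0.082). Its Clover counts were also near the filter minimum of 10, so these calls rest on few reads.

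Z18trunc was compared with Z18fl directly, which asks how ERVK RNA differed once part of ZC3H18 was removed. Of 153 tested elements 1 rose (background 2.62%) and 12 fell (background 3.13%), with 9 of the 12 among 69 internal parts (median -0.40) and 3 among 84 LTRs (median -0.21), beside a median of 0.0083 over all loci. The 12 that fell and the 1 that rose did not overlap in CPM. The number that fell was 1 to 3 without replicate 1 or 2 of either construct, 11 without Z18fl replicate 3 and 14 without Z18trunc replicate 3. Zinc finger mutation on the truncated protein, Z18truncZnFmut against Z18trunc, gave 0 of 130 ERVK elements in either direction by edgeR (background 0.368% higher and 0.351% lower), with 15 higher and 6 lower at an unadjusted p under 0.05 and 1 higher and 0 lower by DESeq2.

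Z18truncZnFmut against Clover gave 0 higher and 4 lower of 93 tested ERVK elements by edgeR (background 12.3% higher and 4.83% lower), with 10 higher and 9 lower at an unadjusted p under 0.05 and 0 higher and 4 lower by DESeq2. Without Z18truncZnFmut replicate 3 the counts were 0 and 2 of 92. With aligned-fragment scaling, under which the median of all loci lay 0.24 higher, 10 of 102 rose and 1 fell. Among all 11354 loci tested that way, 2013 rose and 133 fell. Internal parts held 1 of the calls and LTRs 3, among them HERVK9-int and MER9B of LINC00839 above and LTR22B1 at chr19:23558434-23558908, which fell by 0.61 (adjusted p = 0.016) and by 1.32 with Z18fl.

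A pair of ERVK regions on chromosome 16 had been singled out by the study. The HERVK13-int region was shown as an example of bound RNA in PAR-CLIP, with significant differences in a test of coverage. HERVK3-int was followed because its RNA accumulated in melanoma cells with a truncating ZC3H18 mutation, which is not a measure of binding. The tests below use counts per element and not coverage. HERVK13-int at chr16:2661288-2668373 (minus strand), in ERVK13-1, had 39, 15 and 30 counts in Clover, 42, 89 and 61 with Z18fl, 45, 54 and 63 with Z18trunc and 37, 56 and 72 with Z18truncZnFmut. It did not pass with Z18fl (0.36, edgeR adjusted p = 0.36), nor did LTR13 at chr16:2669525-2670537 of the same provirus (0.65, adjusted p = 0.22), although its CPM was higher with Z18fl without overlap, at a mean of 0.746 against 0.380 in Clover. LTR13 starting at 2660262 (0.340 against 0.146 CPM) and HERVK13-int starting at 2668788 (0.195 against 0.0978 CPM) of this region likewise did not overlap between Z18fl and Clover, and their counts were too low to be tested. HERVK3-int at chr16:35517050-35524053 was at -0.26 with Z18fl (adjusted p = 0.62) and -0.77 with Z18trunc (adjusted p = 0.19).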

How the data were processed

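The authors trimmed reads (cutadapt 4.6, per the submitters' processing notes) and ran SQuIRE on hg38, 1 file per library. The deposited totals are expected counts, in which reads shared by copies are divided by expectation maximization, and the deposited unique reads and aligned fragments are counts. The authors' score, in percent, weighs the total against every read touching an element, and neither it nor the deposited FPKM was used. Groups came from sample titles.

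Same-strand totals were rounded and tested with the edgeR 4.0.16 quasi-likelihood test (R 4.3.3), TMM and filterByExpr (count 10, total 15), over all loci or all subfamilies of 6 classes, using the 6 libraries of each of 5 comparisons, and called under an adjusted p of 0.05. Family values had two-sided exact permutation tests (scipy 1.17.1). The internal to LTR ratio and the T share were added to these. The scripts were tested on simulated data. Some LTR sequences are not reported here. Context came from GENCODE 44, with exonic meaning at least 50% of the element in exons.

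The members and lists were chosen with earlier results of these data known. All internal and all called LTR subfamilies are named. Named loci are those the study followed, the 6 with the highest mean CPM, and in each comparison up to 4 that rose and 2 that fell most among called loci with at least 20 mean counts, 50% unique counts and no overlap in CPM. Other elements of their proviruses, and the provirus reaching into SDHA, were named after their values were seen. Replicate numbers were checked by correlating deviations from group means over 910 subfamilies. Same-numbered libraries of Z18truncZnFmut and Z18trunc deviated together (0.469, 0.247 and 0.652), and those of no other groups did. The origin of that pairing is not given in the sources used here, and it was inferred from these data alone. Replicate 3 listed the most ERVK elements in both Z18trunc (1586) and Z18truncZnFmut (3953). Whether that alone gave these correlations was not tested. Alternatives were DESeq2 1.42.0, aligned-fragment scaling, no filter, unique reads, either strand, all libraries in 1 fit, the replicate block and each library left out.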

Additional observations from a re-analysis of the deposited data

Results flagged for a closer look

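Reads on the strand opposite to ERVK elements lay outside the comparisons above. A single element, MER11B at chr3:15738159-15739435 (minus strand), held 44.8% of them and was left out after its values were seen. The remaining opposite-strand reads came to 247.48 CPM on average in Clover, with 264.8 CPM as the highest library. They came to 301.91 ± 7.51 CPM with Z18fl, 308.44 ± 20.2 CPM with Z18trunc and 363.19 ± 128.5 CPM with Z18truncZnFmut (SD, n = 3 each), and each of these was flagged because all 3 of its libraries lay above all Clover libraries. The lowest libraries had 293.77, 294.48 and 283.31 CPM. What these reads come from was not tested.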

How the results depend on the processing

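The family difference from Clover for Z18fl was 0.47, and it was 0.76 in internal parts, 0.26 in LTRs, 0.62 with unique reads, 0.071 scaled by all element counts, -0.0092 with reads on either strand, and 0.39 on either strand without the MER11B element on chromosome 3, an alternative chosen after seeing the data. For Z18trunc (0.32) it was 0.47, 0.22, 0.40, -0.21 and 0.15 under the first 5 of these, and for Z18truncZnFmut (0.48) it was -0.19 scaled by all element counts. For Z18trunc against Z18fl (-0.15) the values were -0.29, -0.037, -0.22, -0.28 and 0.16, with -0.066 without that element, and for Z18truncZnFmut against Z18trunc (0.16) single libraries left out gave -0.10 to 0.30, the lowest without Z18truncZnFmut replicate 3. The cause was not tested.

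Counts of ERVK loci called higher and lower, main to alternative, moved as follows. With Z18fl against Clover (30 and 25), lower calls were 16 with aligned fragments, 5 without the filter, 14 with unique reads and 14 to 31 with single libraries left out, and either strand gave 54 and 41. With Z18trunc against Clover (7 and 18) the counts were 3 and 10 by DESeq2, 27 and 6 with aligned fragments, 11 and 1 without the filter, 22 higher with either strand, 11 lower with unique reads and 11 lower with the replicate block, and 4 to 11 and 10 to 16 with single libraries left out. With Z18truncZnFmut against Clover (0 and 4) they were 2 and 10 with all 12 libraries in 1 fit, 10 and 1 with aligned fragments, 1 and 0 without the filter, 7 higher with either strand, 1 and 2 with unique reads, and 0 to 4 and 2 to 6 with single libraries left out. With Z18trunc against Z18fl (1 and 12) they were 0 and 7 by DESeq2, 0 and 4 in 1 fit, 5 lower with aligned fragments, 0 lower without the filter, 4 higher with either strand, 0 and 7 with the replicate block, and 0 to 1 and 1 to 14 with single libraries left out. Z18truncZnFmut against Z18trunc gave 1 higher by DESeq2 and 1 with unique reads.

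Subfamilies moved likewise. With Z18fl against Clover (5 and 6) the counts were 1 and 2 in 1 fit, 19 and 2 with aligned fragments, and 13 lower with either strand. With Z18trunc against Clover (1 and 6) they were 0 and 1 in 1 fit, 10 and 1 with aligned fragments, 2 higher without the filter and with unique reads, 0 higher with either strand, and 0 to 2 and 3 to 7 with single libraries left out. With Z18truncZnFmut against Clover (0 and 0), 1 was lower by DESeq2, 2 in 1 fit and 0 to 2 with single libraries left out. With Z18trunc against Z18fl (1 and 5), 0 were higher by DESeq2, without the filter, with either strand, in 1 fit and with the replicate block, lower calls were 3 without the filter and 0 in 1 fit, with aligned fragments and with the block, and single libraries left out gave 0 to 1 and 0 to 5. The replicate block changed no call of Z18truncZnFmut against Z18trunc, where same-numbered libraries deviated together. The paired test of their internal to LTR ratio (-0.15) was added after seeing the data.

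Of the called values of named loci and subfamilies, 7 changed sign. With aligned fragments these were HERVK22-int (Z18trunc against Clover, 0.10), LTR13 (0.11 with Z18fl and 0.091 with Z18trunc) and LTR5_Hs (0.019 and 0.063), and with either strand LTR13 (0.20 with Z18fl and 0.054 with Z18trunc). Direction and side of the threshold were kept for 51 of the 59 called values by DESeq2, 34 with all 12 libraries in 1 fit, 37 with aligned fragments, 37 without the filter, 51 with either strand, 49 with the replicate block, and 55 of 58 with unique reads. Of 350 values with a single library left out 267 kept both and 83 kept the direction only. Depth limits loci most, since 164 of 5644 elements had enough counts to be tested in any comparison.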
